A study of Mus musculus with 6 samples.

Results

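The Bcl2 family of apoptosis regulators was followed in mouse CD4 T helper cell cultures with and without Ezh2. The members were 10 listed genes, and a member was measured by every probe set that the platform's annotation ties to exactly 1 of those symbols. A probe set is a group of short oligonucleotides that together report 1 transcript. In all, 29 probe sets named 9 of the 10 genes, out of 34945 probe sets for 18193 genes. The annotation table used here tied no probe set to Bax, which is not analysed here. Of the 29 probe sets, 25 reached the median of all values (an intensity of 64.43, called the low-signal limit below) on at least 1 array, and 24 did so on all 6 arrays. All 9 measured members had at least 1 probe set over that limit and were tested.

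The 6 groups came from C57BL/6 mice, with 1 array each: Ezh2 KO unpolarized, Th1 and Th2 cultures and wild type unpolarized, Th1 and Th2 cultures. All began as naive spleen CD4 T cells (CD44 low, CD62L high). For 2 days they were stimulated through the T cell receptor (plate-bound anti-TCRβ, coated at 10 µg/ml) and CD28 (agonistic antibody, 1 µg/ml) while IL-2 was present at 15 ng/ml. For 3 further days the cytokines stayed and the stimulating antibodies were left out. Th1 cultures also had 1 ng/ml IL-12 and antibody to IL-4, Th2 cultures had 10 ng/ml IL-4 and antibody to interferon gamma, and unpolarized cultures had both of these blocking antibodies and neither polarizing cytokine. The labels name neither the promoter that drove the deletion nor the deleted part of Ezh2, and they do not say how many mice were used or whether arrays of 1 genotype shared mice. The p-values therefore measure only how these arrays scatter, and precision is limited by their number.

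Proteins of this family decide whether mitochondria release the factors that start apoptosis. Anti-apoptotic members (Bcl2, Bcl2l1 and Mcl1) bind and hold back the effectors Bax and Bak1, which permeabilize the outer mitochondrial membrane. BH3-only members (Bcl2l11, Pmaip1, Bbc3, Bid and Bad) respond to stress or to loss of growth signals and either neutralize the anti-apoptotic members or activate the effectors. In T cells, Bcl2l11, the gene of Bim, is known for the death of activated cells once cytokine support is withdrawn, and Bcl2, Bcl2l1 (the gene of Bcl-xL) and Mcl1 for their survival.

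The question was how the family differs between Ezh2 KO and wild type cells. Ezh2 encodes the histone methyltransferase of the Polycomb complex PRC2, which marks silent genes by methylating histone H3. Of the 9 members, 3 rose in Ezh2 KO and 0 fell: the BH3-only genes Pmaip1 and Bcl2l11 and the anti-apoptotic gene Bcl2l1 (limma, blocked on culture, at a threshold of 0.05 on the Benjamini-Hochberg adjusted p over 11572 genes). Over all genes tested, 16.3% passed: 8.35% were called higher and 7.98% lower, 966 against 924 genes, and 861 against 411 when array medians were set equal. The median log2 difference of the members was 0.34, against -0.07 over all genes tested. Every Ezh2 KO array lay above every wild type array for 6 of the 9 members, where 20.1% of all genes did so, and below for 2 of 9, where 27.5% did. In bulk RNA, fewer cells of a type and less RNA per cell cannot be told apart.

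**Figure D1:**
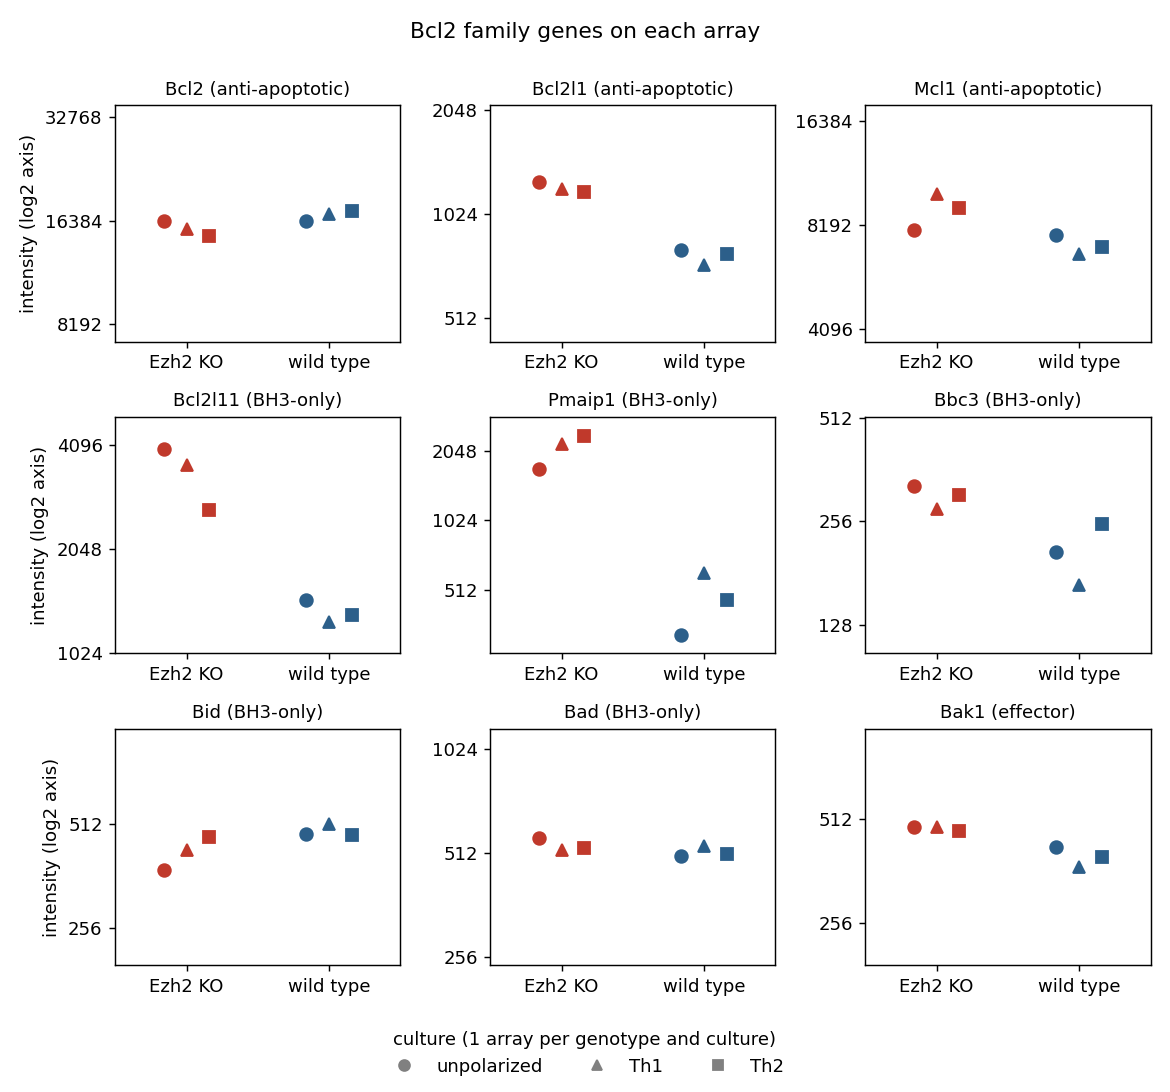
Intensity of each of the 9 measured members on each array (vertical axis, log2 scale with its own range per panel), with Ezh2 KO arrays in red on the left and wild type arrays in blue on the right; circles are unpolarized, triangles Th1 and squares Th2 cultures, 1 array each. All Ezh2 KO arrays lie above all wild type arrays for 6 of the 9 members, Pmaip1, Bcl2l11 and Bcl2l1 among them. They lie below for 2 members, Bcl2 and Bid, and Bad overlaps. Over all genes tested the shares are 20.1% above and 27.5% below. Pmaip1 runs from 1709 to 2381 in Ezh2 KO against 326 to 606 in wild type.

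Among BH3-only genes, Pmaip1 had the largest difference. It encodes Noxa, which binds Mcl1 and is a known p53 target. Its 1 probe set read 1709, 2194 and 2381 in the Ezh2 KO unpolarized, Th1 and Th2 cultures, against 326, 606 and 461 in the matching wild type cultures. The lowest Ezh2 KO reading was therefore far above the highest wild type reading. The log2 difference was 2.21 ± 0.30 (SD over n = 3 pairs of arrays), or 4.61-fold, with a limma adjusted p of 0.01998 and a 95% confidence interval of 1.77 to 2.64. Per culture it was 2.39, 1.86 and 2.37 in unpolarized, Th1 and Th2 cultures. In both genotypes the unpolarized array read lowest.

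Bcl2l11 rose on all of its 5 probe sets. The brightest read 4003, 3589 and 2667 in the Ezh2 KO unpolarized, Th1 and Th2 cultures, against 1464, 1263 and 1323 in wild type. All Ezh2 KO readings were above all wild type readings. The log2 difference was 1.32 ± 0.27 (SD, n = 3), or 2.50-fold, with a limma adjusted p of 0.0266 and a 95% confidence interval of 0.92 to 1.72. The other 4 probe sets gave mean log2 differences of 1.09 to 1.37, and each was higher in Ezh2 KO in every culture. When every probe set was tested on its own, all 5 passed (limma adjusted p = 0.0330 to 0.0438). They are not replicates, since they share the gene and the arrays.

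The probe sets of Bcl2l11 did not rank the cultures alike. On the brightest, the log2 difference was smallest in Th2 cultures (1.01, against 1.45 in unpolarized and 1.51 in Th1 cultures). On the dimmest, which read 188, 233 and 220.5 in Ezh2 KO against 89.4, 79.3 and 78.2 in wild type, it was smallest in unpolarized cultures (1.07, against 1.55 in Th1 and 1.495 in Th2). On all 5 the difference was largest in Th1 cultures. With 1 array per genotype and culture, a difference of the genotype effect between cultures could not be tested.

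Bbc3, the gene of Puma and another known p53 target, read 325, 278 and 304 in Ezh2 KO against 209, 167 and 252 in wild type. The groups did not overlap, and the Th2 pair lay closest. The log2 difference of 0.55 ± 0.24 (SD, n = 3) did not pass (limma adjusted p = 0.0692; 95% confidence interval 0.18 to 0.92). It passed when the variance was moderated with an intensity trend (adjusted p = 0.0314).

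The other BH3-only genes gave smaller values. Bid, whose protein is cut by caspase 8 and links death receptors to mitochondria, read 378, 431 and 471 in Ezh2 KO against 479.8, 512 and 477 in wild type. All Ezh2 KO readings were below all wild type readings, but the Th2 readings nearly met. The log2 difference was -0.20 ± 0.17 (SD, n = 3; limma adjusted p = 0.238). A dimmer Bid probe set pointed the other way, with 146, 120.4 and 86.5 in Ezh2 KO against 81.2, 124 and 70.4 in wild type. Bad, a target of survival kinases, read 565, 523 and 529 in Ezh2 KO against 501, 536 and 507 in wild type. The genotypes overlapped, and the log2 difference was 0.07 ± 0.10 (SD, n = 3; limma adjusted p = 0.611), with a 95% confidence interval of -0.19 to 0.32.

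Promoter windows are shown for Bcl2l11 and Bcl2l1, which rose and have a window in the RefSeq table used, and for the Bbc3 start that shares a motif with Bcl2l11. Each is the 250 bases before an annotated RefSeq start in GRCm38.p6, and capitals mark TGTTTAC or its reverse complement GTAAACA, the core of a FoxO site. FoxO factors are known activators of Bcl2l11 and Bbc3.
Bcl2l11, first start, chr2:128125788-128126037, plus strand: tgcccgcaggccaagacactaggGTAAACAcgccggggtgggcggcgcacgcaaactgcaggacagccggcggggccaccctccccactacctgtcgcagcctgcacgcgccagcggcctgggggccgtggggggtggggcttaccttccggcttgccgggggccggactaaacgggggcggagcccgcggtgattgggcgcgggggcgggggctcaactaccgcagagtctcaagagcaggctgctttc
Bcl2l11, second start, chr2:128127325-128127574, plus strand: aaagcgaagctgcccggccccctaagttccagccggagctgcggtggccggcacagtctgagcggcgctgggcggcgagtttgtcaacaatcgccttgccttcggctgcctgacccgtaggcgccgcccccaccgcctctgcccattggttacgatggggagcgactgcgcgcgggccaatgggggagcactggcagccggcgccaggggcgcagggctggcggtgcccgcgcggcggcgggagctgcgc
Bbc3, second start, chr7:16310011-16310260, plus strand: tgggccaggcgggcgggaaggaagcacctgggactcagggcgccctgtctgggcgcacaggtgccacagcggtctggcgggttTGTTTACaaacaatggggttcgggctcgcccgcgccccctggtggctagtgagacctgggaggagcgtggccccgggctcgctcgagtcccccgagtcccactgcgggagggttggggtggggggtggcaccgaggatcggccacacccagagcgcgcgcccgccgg
Bcl2l1, first start, chr2:152831729-152831978, minus strand: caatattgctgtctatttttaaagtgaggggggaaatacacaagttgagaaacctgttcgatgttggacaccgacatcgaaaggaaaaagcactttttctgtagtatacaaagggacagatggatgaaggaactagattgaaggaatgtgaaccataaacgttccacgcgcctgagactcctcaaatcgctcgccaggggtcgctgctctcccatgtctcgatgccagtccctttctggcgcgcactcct

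The motif occurred in 2 of the 15 windows found for 9 of the listed genes (Bax included, Pmaip1 not), the 2 shown with capitals, and in 3.17% of 32851 windows of the same length over all genes. On either strand, none of the 15 windows held TGANTCA (AP-1), TTCNNNGAA (STAT), TGACGTCA (CRE) or TTTGGCGC (E2F), which occurred in 6.75%, 7.02%, 1.55% and 0.417% of all windows. A match is a description of letters and not a measured binding site. CG dinucleotides, which are dense at the CpG islands where Polycomb complexes are known to bind, numbered 24 and 30 in the Bcl2l11 windows and 23 in the Bbc3 window shown. They numbered 36 in the Bcl2 window and 12, 11 and 0 in the 3 Bcl2l1 windows, against a median of 6 over all windows. In 14 of the 15 windows the count was above that median.

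Among anti-apoptotic genes, Bcl2l1 rose. Its bright probe set read 1269, 1209.7 and 1186 in the Ezh2 KO unpolarized, Th1 and Th2 cultures, against 808, 730.2 and 783 in wild type. The groups were well apart and the readings within each genotype were close. This was a log2 difference of 0.66 ± 0.07 (SD, n = 3), or 1.58-fold (limma adjusted p = 0.0303; 95% confidence interval 0.42 to 0.89). The other 3 Bcl2l1 probe sets did not exceed 89.8 on any array, and averaging all 4 reduced the difference to 0.07 (adjusted p = 0.633). The rise of Bcl2l1 therefore rests on 1 probe set.

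Mcl1, a short-lived protein that Pmaip1 antagonizes, was higher in Ezh2 KO in polarized cultures without passing. Its brightest probe set read 7925, 10088 and 9149.8 in the Ezh2 KO unpolarized, Th1 and Th2 cultures, against 7644, 6754 and 7054 in wild type. On this probe set the groups did not overlap, but the unpolarized pair was nearly equal. On most of the other Mcl1 probe sets the groups overlapped. On the log2 scale the difference was 0.34 ± 0.27 (SD, n = 3; limma adjusted p = 0.167), and per culture 0.05, 0.58 and 0.38. All 6 Mcl1 probe sets read higher in Ezh2 KO than in wild type in Th1 cultures and in Th2 cultures, and 3 of 6 did in unpolarized cultures. These probe sets are not replicates either, since they share the gene and the arrays, and no share over all probe sets is given. Their mean log2 differences ran from 0.01 to 0.49. On 3 of the 6, the name carries the platform's mark for probes that may bind other transcripts.

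Bcl2, the founding member, was bright on all of its 5 probe sets and differed little. The brightest read 16333, 15469 and 14750.1 in the Ezh2 KO unpolarized, Th1 and Th2 cultures, against 16386, 17097 and 17482 in wild type. The groups did not overlap, with all Ezh2 KO readings below all wild type readings. The unpolarized readings were nearly equal and the Th2 readings lay farthest apart. Ezh2 KO minus wild type was -0.13 ± 0.12 on the log2 scale (SD, n = 3; limma adjusted p = 0.361; 95% confidence interval -0.40 to 0.13). Mean log2 differences of the other 4 probe sets ran from -0.38 to -0.05, and none passed on its own. Of the 5 probe sets, 3 read lower in Ezh2 KO in every culture. On all 5 probe sets the Ezh2 KO Th2 array had the lowest of the 6 readings. On the probe set with the largest difference in Th2 cultures, whose name carries the same mark of possible binding to other transcripts as those 3 Mcl1 probe sets, the readings were 4625, 5020.2 and 3668 in Ezh2 KO against 5733, 5790 and 5614 in wild type.

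**Figure D2:**
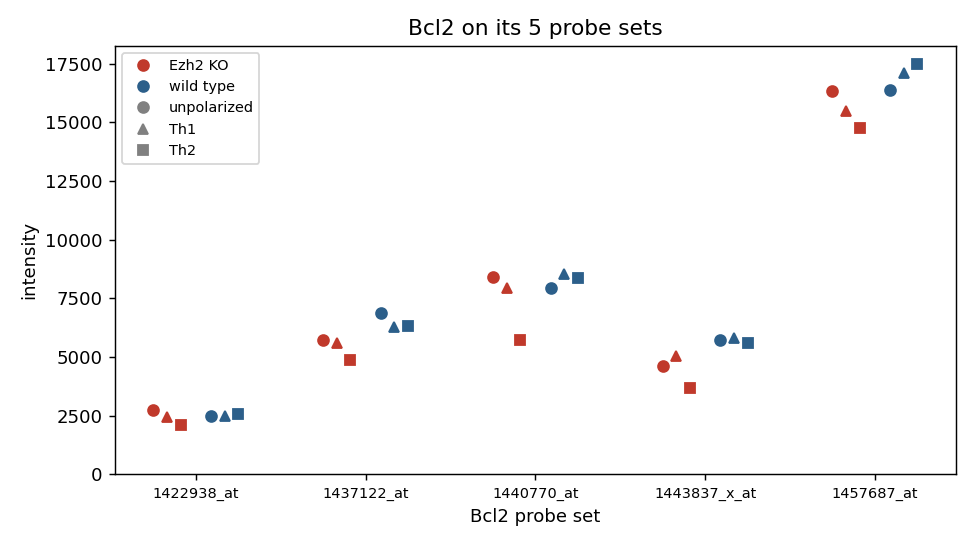
Intensity of Bcl2 (vertical axis, linear from 0) on each of its 5 probe sets (horizontal axis), Ezh2 KO in red to the left of wild type in blue, with 1 symbol per array and culture. The Ezh2 KO Th2 square is the lowest of the 6 readings on every probe set, and levels of different probe sets are not comparable. The probe sets share the arrays and are not replicates.

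The effector Bak1 read 485, 487 and 475 in Ezh2 KO against 427, 372 and 399 in wild type on its bright probe set. The groups did not overlap, and the Ezh2 KO readings were nearly equal. The log2 difference was 0.28 ± 0.11 (SD, n = 3; limma adjusted p = 0.114; 95% confidence interval 0.02 to 0.53), and it passed when only genes with a mean over the 60th percentile were tested (adjusted p = 0.0405). The other Bak1 probe set stayed dim, at 50.8 or less on all arrays.

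Across the 25 member probe sets that could be tested one by one, 7 rose and 0 fell: the 5 of Bcl2l11 and 1 each of Pmaip1 and Bcl2l1. Of all probe sets tested, 5.1% were called higher and 4.08% lower. All Ezh2 KO arrays lay above all wild type arrays for 11 of the 25, where 17.8% of all probe sets did so, and below for 4, where 25.7% did.

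**Figure D3:**
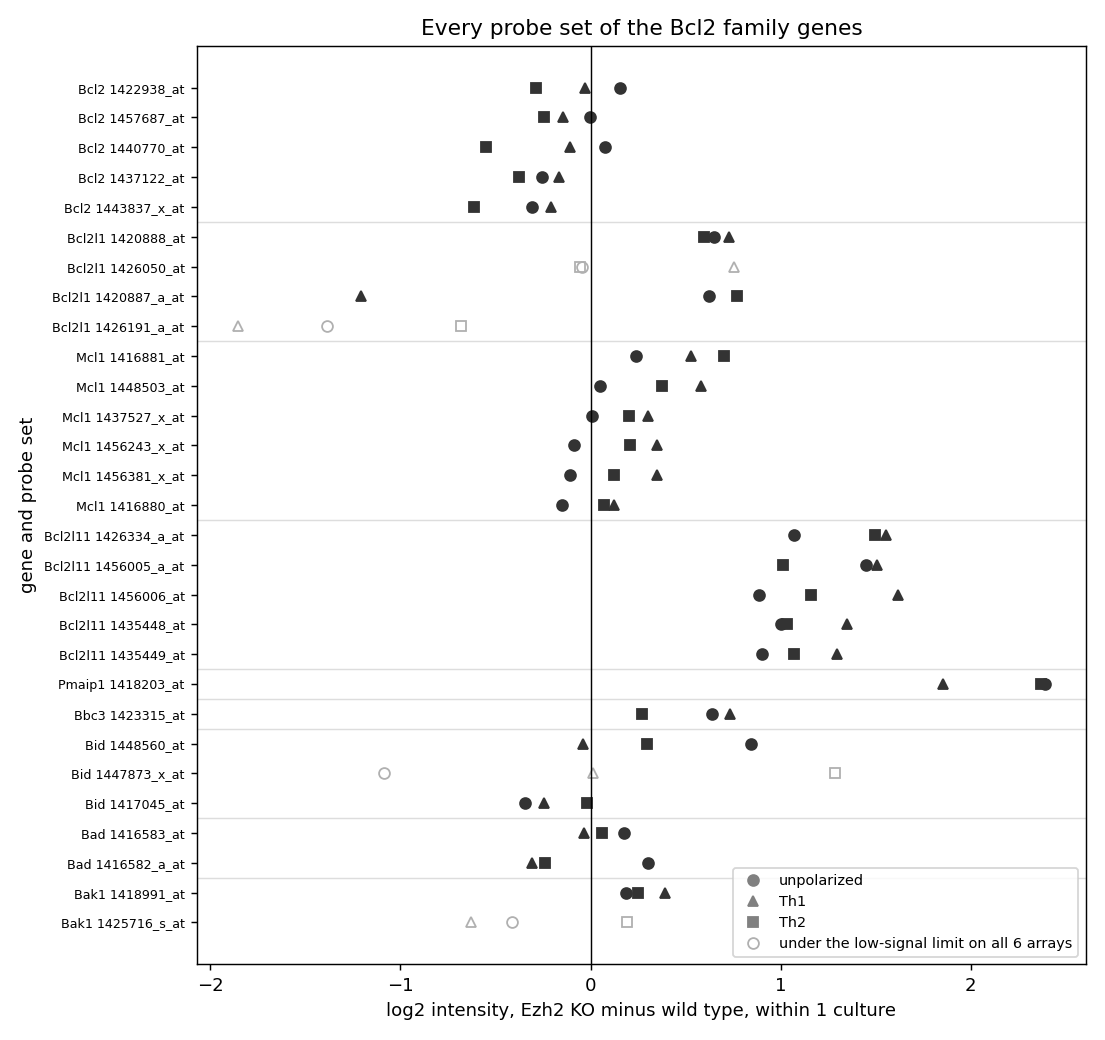
Log2 difference between Ezh2 KO and wild type within each culture (horizontal axis) for all 29 probe sets of the 9 measured members (vertical axis, grouped by gene); circles are unpolarized, triangles Th1 and squares Th2 cultures, and open grey symbols mark the 4 probe sets that never reached the low-signal limit. All 5 Bcl2l11 probe sets lie right of 0 in every culture, whereas the probe sets of Bcl2l1 and Bid scatter to both sides.

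The calls depended on having all 6 arrays and on the filter. With any 1 culture left out for both genotypes, 0 of all 11572 genes passed (limma), so that the loss is not particular to the members. The adjusted p was then 0.0803 to 0.110 for Pmaip1, 0.0839 to 0.120 for Bcl2l11 and 0.126 to 0.128 for Bcl2l1, while their log2 differences stayed at 2.11 to 2.38, 1.23 to 1.48 and 0.62 to 0.69. An unadjusted p under 0.05 was then reached by 3 to 4 of the 9 members and by 2952 to 3227 of all genes, against 5 members and 4479 genes with all arrays. Without the filter on low values 0 of 18193 genes passed, members included, with 5 members and 4711 genes at an unadjusted p under 0.05.

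The second question was whether the family differs between culture conditions. With genotype as the block, 0 of the 9 members passed between Th1 and unpolarized, Th2 and unpolarized, or Th1 and Th2 cultures (limma), and 0% of all genes did. An unadjusted p under 0.05 was reached by 632, 775 and 878 genes, among them 1, 0 and 0 members. That member was Pmaip1, at 0.63 ± 0.18 (SE) in Th1 minus unpolarized cultures (limma adjusted p = 0.857, unadjusted p = 0.031). In Th2 minus unpolarized cultures Pmaip1 gave 0.49 ± 0.18 (SE, limma adjusted p = 0.759; 95% confidence interval -0.04 to 1.02). Bcl2l11 gave -0.37 ± 0.17 (SE) in Th2 minus unpolarized cultures (limma adjusted p = 0.822), and Bbc3 gave -0.36 ± 0.16 (SE) in Th1 minus Th2 cultures (limma adjusted p = 0.682). Over the 9 members and these 3 comparisons, log2 differences ran from -0.37 to 0.63. The first 2 comparisons share the unpolarized arrays.

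The pathway around the members was described with 6 gene lists, which were chosen with earlier results of these data known. Of their 69 tested genes, 13 rose and 4 fell, where 8.35% of all genes were called higher and 7.98% lower, and with equal array medians 10 rose and 2 fell. In the settings in which no gene of the whole table passed, 0 of these passed either: an unadjusted p under 0.05 was reached by 24 to 27 with 1 culture left out and by 29 without the filter, against 34 with all arrays and the filter (limma). Of 10 tested other Bcl2 family genes, 0 rose and 0 fell, with a median log2 difference of 0.03 and 4 at an unadjusted p under 0.05 (limma). These 4 are named after their values were seen. Bmf, a BH3-only gene, had a positive log2 difference of 0.66 ± 0.33 (SD, n = 3; limma adjusted p = 0.0726). The other 3 had negative ones, in every culture: Bcl2l13 with -0.36 ± 0.05, Bcl2l12 with -0.37 ± 0.14 and Bok, a relative of the effectors, with -1.59 ± 1.21 (limma adjusted p = 0.0617, 0.0814 and 0.118). For Bok, 2 of the 3 Ezh2 KO readings were under the low-signal limit.

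Of 15 tested genes of the mitochondrial death machinery, 1 rose and 3 fell, with a median of -0.17. The list also holds inhibitors of caspases, such as Xiap, so its median is not a measure of more or less death. Diablo, whose protein leaves mitochondria and blocks inhibitors of caspases, read 881, 858 and 847 in Ezh2 KO against 1669, 1660.4 and 1760 in wild type. Every Ezh2 KO reading was close to the others and far below wild type, with a log2 difference of -0.98 ± 0.07 (SD, n = 3; limma adjusted p = 0.0217). Endog, a mitochondrial nuclease, fell by 0.85 ± 0.17, and Casp9, the initiator caspase of this route, by 0.65 ± 0.18 on the log2 scale. Apaf1, which assembles with cytochrome c to activate caspase 9, rose by 0.49 ± 0.11.

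Of 8 tested genes of the death receptor pathway, 2 rose and 0 fell (median 0.28). The 2 that rose encode ligands. The receptor genes Fas and Tnfrsf1a did not pass, with log2 differences of 0.18 ± 0.73 and 0.14 ± 0.08 (limma adjusted p = 0.714 and 0.287). Fasl, the ligand of Fas, read 2644, 3045 and 2029 in Ezh2 KO against 394, 831 and 375 in wild type (log2 2.35 ± 0.44, SD, n = 3; limma adjusted p = 0.0218). The groups were far apart in every culture. Tnfsf10, the gene of the death ligand TRAIL, rose by 0.97 ± 0.26.

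Of 14 tested genes of p53 and its targets, 7 rose and 0 fell (median 0.51). In every culture 13 of 14 were higher in Ezh2 KO, where 26.2% of all genes were. The exception, Gadd45a, was lower in every culture without passing (log2 -0.37 ± 0.06, limma adjusted p = 0.0616). Since the list was chosen with earlier results known, these counts are a description and not a test. Perp, a membrane protein gene, read 510.3, 679 and 1013 in Ezh2 KO against 133, 244 and 221 in wild type (log2 1.87 ± 0.37, SD, n = 3; limma adjusted p = 0.0241). The cell cycle inhibitor Cdkn1a rose by 1.79 ± 0.57, the stress protein Sesn2 by 1.08 ± 0.39 and Mdm2, which degrades p53, by 0.78 ± 0.21. Apaf1 is on this list too. No probe set was tied to Trp53 itself in the annotation used, so its level is not analysed here.

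Of 10 FoxO and stress response regulators, 2 rose and 0 fell (median 0.34): Atf3 by 2.42 ± 0.52, over 1 wild type reading under the low-signal limit, and Jun by 0.95 ± 0.13. Neither FoxO gene on the list passed. Foxo1 gave a log2 difference of 0.56 ± 0.22 and Foxo3 of -0.13 ± 0.24 (limma adjusted p = 0.0596 and 0.510). Of 13 tested genes of cytokine survival signalling, 2 rose and 1 fell (median 0.01). The IL-7 receptor gene Il7r, which signals survival in resting T cells, read 2776, 2785 and 6255 in Ezh2 KO against 1264, 1611 and 3070.2 in wild type (log2 0.98 ± 0.18, SD, n = 3; limma adjusted p = 0.0274). Its Th2 array was the brightest in both genotypes. The survival kinase Pim2 rose by 1.10 ± 0.35, and Stat5a, which transmits IL-2 signals, fell by 0.63 ± 0.15. The ± values in this and the preceding paragraphs on the lists are SDs over 3 pairs.

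**Figure D4:**
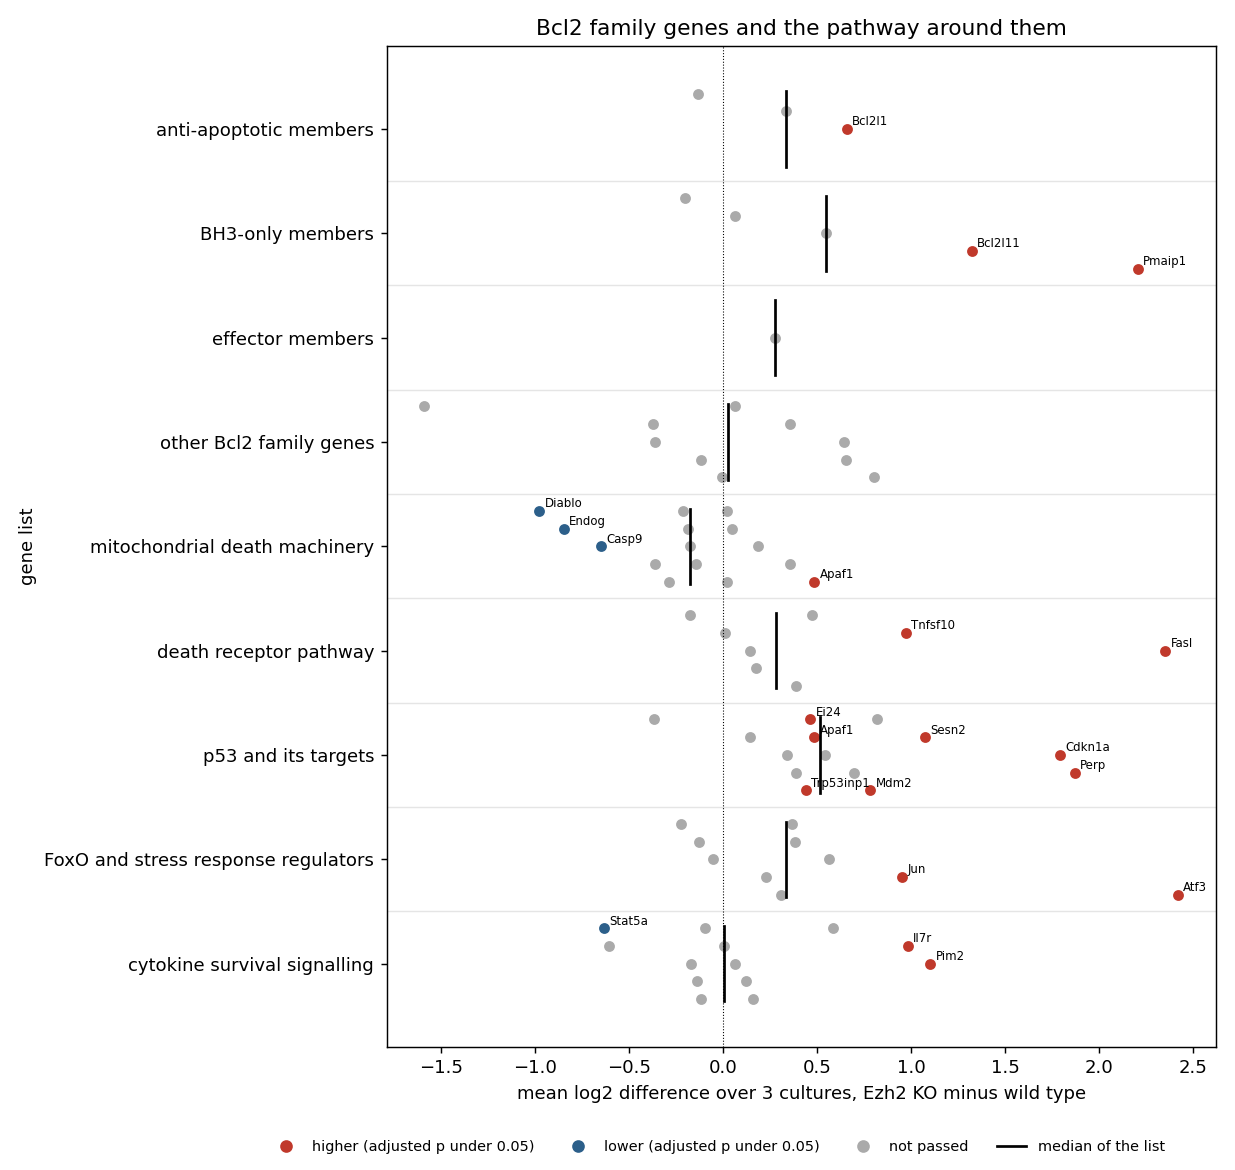
Mean log2 difference over the 3 cultures (horizontal axis, Ezh2 KO minus wild type) of each tested member and each tested gene of the 6 pathway lists (rows); red and blue points passed as higher and lower, grey points did not, and the black bar is the median of the row. The p53 row has its median at 0.51 with 7 genes higher, and the mitochondrial row its median at -0.17 with 3 lower. The lists were chosen with earlier results of these data known.

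Genes with the most similar profile were sought for the member of each role with the largest difference, by Pearson correlation of log2 values over the 6 arrays, among all genes tested. For Pmaip1 they were B3gnt5 (r = 0.999), Srpr (0.998) and Mlkl (0.998), the last the effector of necroptosis. For Bcl2l1 they were Prkcq (0.998), a kinase of T cell receptor signalling, Slc36a1 (0.997) and Cd96 (0.996). For Bak1 they were Rasa3 (0.997), Tmem71 (0.995) and Pde3b (0.993). The 6 arrays share 2 genotypes and 3 cultures, so these values are a description only.

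The labels were checked on the same arrays. Ezh2 read 4971, 4876 and 4946 in Ezh2 KO against 7002, 6553 and 7677 in wild type, 1.43-fold lower. The labels do not say whether its probe set lies in the deleted part of the gene, so this level is a weak check of the genotype. All 7 CD4 T cell markers with a probe set were over the low-signal limit on all arrays, with summed intensities of 62269 to 70386 in Ezh2 KO and 58420 to 63888 in wild type. Cd4 itself read 433, 300.2 and 315 in Ezh2 KO against 496, 477 and 548 in wild type (log2 -0.55 ± 0.32, SD, n = 3, limma adjusted p = 0.0914). Cd5 gave log2 -0.51 ± 0.16 (limma adjusted p = 0.0532). Cd4 and Cd5 read lower in every Ezh2 KO culture without passing. The other 5 (Cd28, Cd3d, Cd3e, Cd3g and Thy1) read higher in every Ezh2 KO culture, also without passing. The 3 NK cell markers with a probe set were under that limit on every array, as were 5 of the 7 myeloid markers. The 4 B cell markers with a probe set summed to 320 to 940 in Ezh2 KO and 120 to 265 in wild type, and 1 of them passed. That was Ms4a1, with 210.1, 189 and 669 in Ezh2 KO against 83.7, 30.3 and 63.5 in wild type (limma adjusted p = 0.0472), where 2 of the 3 wild type readings were under the low-signal limit. Cd79b did not pass (limma adjusted p = 0.0604), Cd79a did not exceed 24.6 on any array, and Pax5, dim throughout, read lower in Ezh2 KO in every culture. CD8 T cell markers summed to 374 to 540 in Ezh2 KO and 389 to 414 in wild type. Of these, Cd8a read lower in every Ezh2 KO culture. Cd8b1 read 295, 339 and 450 in Ezh2 KO against 300, 263 and 277 in wild type. The part of these other cell types in the differences of the Bcl2 family was not tested.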

How the data were processed

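Each sample gave 1 Affymetrix array, hybridized with total RNA labelled by a 3' IVT kit, per the labels' protocols. The authors deposited linear intensities. Affymetrix Expression Console was the software, per the submitters' processing notes, which carry no version, and no source used here names the summarization algorithm. Every array had the same trimmed mean of deposited intensities (500.003, with 2% removed at either end), and array medians ran from 61.3 to 69.1. Depth does not apply to arrays, and signal over background limits dim probe sets.

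Symbols came from the platform annotation and were matched by Entrez identifier to RefSeq of GRCm38.p6 for 34754 of 34945 probe sets. Intensities under the 20th percentile (11.33) were set to it before log2 was taken. Each gene was read from its probe set of highest mean log2 value, and was tested if any array reached the overall median (64.43). An additive model of genotype and culture over all 6 arrays was fitted with limma 3.58.1 in R 4.3.3 (eBayes, 2 residual degrees of freedom, Benjamini-Hochberg threshold 0.05). The code was also run on simulated arrays with independent noise and no culture effect. Such arrays lack effects of shared mice or of single arrays, so the run cannot show that the p-values hold for these data. Each ± on a log2 difference is the SD over the 3 culture pairs unless marked SE. Called pathway genes named are up to 4 per list with the largest differences. Pathway genes named that did not pass, the 4 other Bcl2 family genes among them, were chosen after their values were seen. The members, lists and rules were chosen with earlier results of these data known. Alternatives changed the scaling, filter, floor, probe set rule, variance moderation, block and cultures used.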

Additional observations from a re-analysis of the deposited data

Results flagged for a closer look

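Where a probe set differed by at least 0.5 (log2) in opposite directions between cultures it was singled out, and the difference between cultures was not tested. On 1 of the dimmer Bcl2l1 probe sets, Ezh2 KO minus wild type was 0.62 in unpolarized, -1.20 in Th1 and 0.77 in Th2 cultures, with readings of 79.1, 38.9 and 70.4 in Ezh2 KO against 51.4, 89.8 and 41.4 in wild type, around the low-signal limit of 64.43. On the dimmest Bid probe set it was -1.09 in unpolarized and 1.29 in Th2 cultures, with all readings under that limit.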

How the results depend on the processing

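The number of members called between Ezh2 KO and wild type was 3. It was 0 without the filter on low values and 0 to 0 with 1 culture left out. With an intensity trend in the variance it was 5 (Mcl1 and Bbc3 added). With the filter at the 60th percentile it was 4 of 8 tested (Bak1 added), and with the mean of all probe sets 2 (Bcl2l1 lost). Calls in the pathway lists numbered 17, and 0 without the filter, 29 with the filter at the 60th percentile, 11 with every probe set on its own, 32 with the trend and 0 to 0 with 1 culture left out. Leaving out a culture leaves 1 residual degree of freedom. Over all genes the count was 1890, against 1272 with median centring, 3050 with the 60th percentile filter, 3983 with the trend, 2838 without the culture block, and 0 without the filter or with any 1 culture left out. Pmaip1, Bcl2l11 and Bcl2l1 kept a positive difference under every alternative run. Signs that turned belonged to members that did not pass. With the mean of all probe sets, Ezh2 KO minus wild type was 0.078 for Bid, -0.0079 for Bad and -0.0041 for Bak1; Th1 minus unpolarized was -0.10 for Mcl1 and 0.32 for Bak1; Th2 minus unpolarized was -0.0091 for Mcl1 and -0.13 for Bid; and Th1 minus Th2 was -0.088 for Mcl1, 0.50 for Bid and 0.52 for Bak1. With median centring Bcl2 gave 0.0087 in Th2 minus unpolarized and -0.011 in Th1 minus Th2 cultures, and with quantile normalization Bad gave 0.031 in Th1 minus unpolarized cultures. The cause was not tested. No paired analysis by replicate number was possible because the labels number no replicates; culture is the block in the fit.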
